A study of Rattus norvegicus with 6 samples.

Results

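Bone morphogenetic proteins (BMPs), the related growth and differentiation factors (GDFs) and the secreted proteins that block them were followed in bulk RNA of rat tail discs. The 10 genes were the rows of the count table named Bmp2, Bmp4, Bmp6, Bmp7, Gdf5, Gdf10, Grem1, Nog, Chrd and Id1, out of 30562 genes, and 10 of 10 passed the filter on low counts. Bmp2, Bmp4, Bmp6, Bmp7, Gdf5 and Gdf10 encode ligands, Grem1, Nog and Chrd encode secreted antagonists, and Id1, which is neither, is a target gene induced by BMP signalling. BMP ligands bind pairs of serine/threonine kinase receptors at the cell surface, the activated receptors phosphorylate the transcription factors Smad1, Smad5 and Smad9, and these enter the nucleus with Smad4 and switch on genes such as the Id family. Gremlin, noggin and chordin bind the ligands outside the cell and keep them from the receptors. In the disc and in neighbouring cartilage and bone, the pathway is known for its part in joint formation, synthesis of cartilage matrix and mineralization.

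The comparison asked how transcripts of injured discs differ between rats given a nanoparticle and rats that were not. By the text of the study, tail discs of male Sprague-Dawley rats aged 12 weeks were punctured with a needle, injections into the disc began 24 h later, and disc tissue of 3 rats per group was sequenced, from a cohort with a treatment period of 8 weeks. One group received AF-PTK@LEV@SPP1, a vesicle with a peptide that binds the annulus fibrosus, a linker cut by reactive oxygen species and an siRNA against Spp1, as 10 µL with siRNA at 1 mg/kg. The other group, named Control in the sample labels, received PBS by the methods and nothing by the labels. Both groups carry the genotype WT in the labels and shared the puncture. The labels depart from that text in other respects, giving 14 days of treatment, mice as the source of the discs, primary cells, and macrophages sorted from digested tissue. The methods describe the siRNA as directed against mouse Spp1, whereas the discs came from rats.

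Totals were 17942989, 16565291 and 17489851 counts in Control replicates 1, 2 and 3 and 17074981, 15560728 and 17855184 in the AF-PTK@LEV@SPP1-labelled libraries. Levels are in CPM, in which each count is divided by the total of its library and multiplied by a fixed constant, and 3 counts, the smallest level taken as measured, were worth 0.167 to 0.193 CPM. This floor covers counting error only. Control replicates 2 and 3 were nearly the same library. Over 14393 genes with at least 20 counts in this pair, their counts varied 1.33 times as much as counting noise. For the other 5 pairs within a group it was 51.3 to 107 times, and between groups 161 to 237 times. Each of those pairs was compared over its own genes with at least 20 counts. Control replicates 2 and 3 were therefore summed and counted as 1 sample, which left 5 distinct samples, 3 against 2. CPM were normalized by the trimmed mean of M-values, means and SD are over distinct samples, and a gene was called at an adjusted p under 0.05 in edgeR's quasi-likelihood test with Benjamini-Hochberg adjustment over 15537 genes. The table gives no transcript lengths, so the most abundant or leading gene of a list is the one with the highest mean normalized CPM over the 6 libraries, which also depends on length, and another gene may be higher in single libraries or in 1 group.

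Spp1, the gene the siRNA is directed against, stood at 8114, 4408 and 4414 normalized CPM in Control replicates 1, 2 and 3 and at 8047, 6893 and 8451 in AF-PTK@LEV@SPP1 replicates 1, 2 and 3. Spp1 was not lower in the AF-PTK@LEV@SPP1-labelled libraries, its groups overlapped, and its log2 fold change was 0.31 with a standard error of 0.37 (edgeR adjusted p = 0.628). All directions are therefore given relative to the labels. Genes of tendon, annulus fibrosus and cartilage, which macrophages do not express at such levels, were abundant in all 6 libraries, so the macrophage sort given in the labels did not match the data. The 8 annulus or tendon markers summed to 59065, 84872 and 85699.7 normalized CPM in Control replicates 1, 2 and 3 and to 118090.4, 84512 and 101849 in the AF-PTK@LEV@SPP1-labelled libraries, led by Col1a1, and 0 of 8 were called by edgeR (1 at an unadjusted p under 0.05 and 2 by DESeq2). The 8 macrophage markers summed to 1150.1, 778 and 777 in Control and to 358, 518 and 454 in the AF-PTK@LEV@SPP1-labelled libraries, led by Mrc1 over the 6 libraries and by Csf1r over distinct samples. Cd68 and Cd14 were lower there (log2 fold changes of -1.97 and -1.89, edgeR adjusted p = 0.0231 and 0.0119), and 2 of 8 macrophage markers were called (4 at an unadjusted p under 0.05 and 4 by DESeq2). The calls of Cd68 and Cd14 were lost without AF-PTK@LEV@SPP1 replicate 2 or 3, where edgeR called 0 genes in all.

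Of the BMP members, Grem1 was the one with the largest difference, at a level 9.07-fold that of Control in the AF-PTK@LEV@SPP1-labelled libraries, while Bmp2 and Gdf5 stood 3.41-fold and 4.20-fold higher in Control. None of the 3 passed the test over 5 distinct samples, and each passed when all 6 libraries were kept. The ligands did not move as a group, with positive fold changes for 4 of 6 and negative ones for 2, and neither did the antagonists, with 2 positive and 1 negative. edgeR called 0 of the 10 genes, where 3.70% of all genes tested were called, 1.13% higher and 2.57% lower. At an unadjusted p under 0.05 the count was 4 of 10, against 25.4% of all genes. DESeq2 called 3 of 10 (16.6% of all genes) and limma-voom 0 of 10 (2.92%). With 6 libraries kept as 6 samples, edgeR called 3 of 10, 1 higher and 2 lower, against 18.1% of all genes, 8.20% higher and 9.93% lower. The genes called by DESeq2 and by edgeR with 6 libraries were Bmp2, Gdf5 and Grem1 in both cases. Over distinct samples, levels of the groups did not overlap for 7 of 10 genes, against 45.8% of all genes tested, and the median log2 fold change of the 10 genes was 0.62, against 0.05 over all genes. With 3 samples against 2, the smallest p of the two-sided exact permutation test is 0.100, so this test cannot reach the threshold for any gene.

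**Figure D1:**
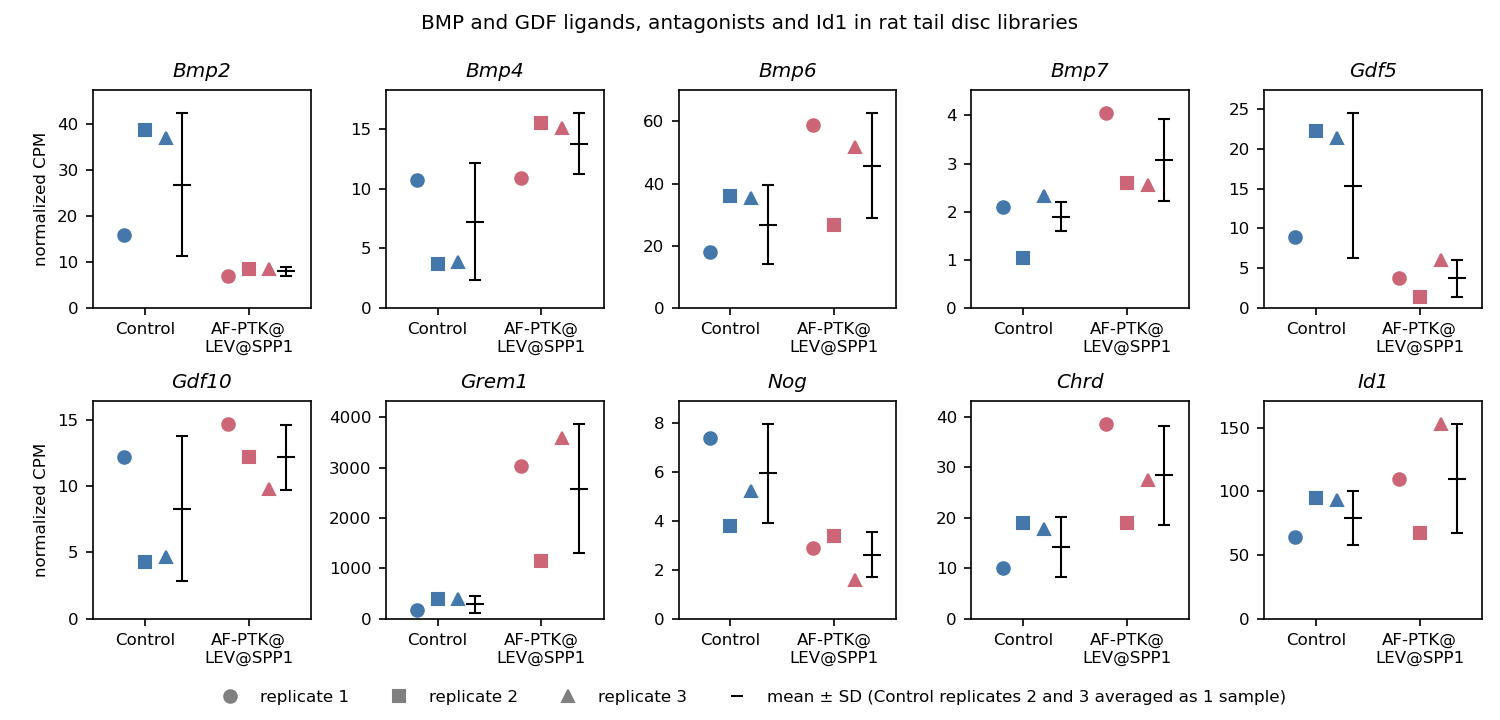
Normalized CPM of the 10 genes in each library, with circles, squares and triangles for replicates 1, 2 and 3, Control in blue and AF-PTK@LEV@SPP1 in red, and black bars for the mean ± SD over distinct samples (Control n = 2, AF-PTK@LEV@SPP1 n = 3). Each panel has its own axis from 0; Grem1 was between 168 and 398 in Control and between 1135 and 3587 in the AF-PTK@LEV@SPP1-labelled libraries, and Bmp2 and Gdf5 were lower there than in any Control library.

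Bmp2, a ligand that drives bone and cartilage formation (ENSRNOG00000071010, plus strand of chromosome 3, 120812882 to 120821397 in the table's coordinates), was at 15.8, 38.8 and 36.9 normalized CPM in Control replicates 1, 2 and 3 and at 6.87, 8.38 and 8.54 in AF-PTK@LEV@SPP1 replicates 1, 2 and 3. Every AF-PTK@LEV@SPP1-labelled library lay below every Control library, and those 3 were close together, whereas Control replicate 1 stood well under the near-identical pair. The Control mean was 26.8 ± 15.6 (SD, n = 2) and the mean in the AF-PTK@LEV@SPP1-labelled libraries was 7.93 ± 0.918 (SD, n = 3). The log2 fold change was -1.77 with a standard error of 0.38, and edgeR's adjusted p of 0.0736 missed the threshold. With 6 libraries the log2 fold change was -1.94 and the edgeR adjusted p 0.0180, DESeq2 gave an adjusted p of 0.000939, and limma-voom one of 0.114. The call thus turned on the tool and on how the near-identical pair was counted. It also turned on Control replicate 1, since without it the log2 fold change was -2.27 with a standard error of 0.19 (edgeR adjusted p = 0.0337), in a fit that leaves 1 Control sample and assumes that it varies like the others. The exact permutation p was 0.100, the smallest possible. In bulk RNA, fewer cells of a type and less RNA per cell cannot be told apart, for Bmp2 and for every other gene given here.

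Gdf5, a ligand needed for the formation of joints (ENSRNOG00000050123, minus strand of chromosome 3, 144454338 to 144458612), stood at 8.93, 22.3 and 21.4 normalized CPM in Control and at 3.70, 1.33 and 6.03 in AF-PTK@LEV@SPP1 replicates 1, 2 and 3. The groups did not overlap, although the highest AF-PTK@LEV@SPP1-labelled library, replicate 3, came near Control replicate 1. Means were 15.4 ± 9.15 (SD, n = 2) in Control and 3.69 ± 2.35 (SD, n = 3) in the AF-PTK@LEV@SPP1-labelled libraries. The log2 fold change of -2.07 had a standard error of 0.68, with an edgeR adjusted p of 0.146, which became 0.0478 with 6 libraries and 0.0284 in DESeq2. A pseudogene on the opposite strand lies within the span of Gdf5 and held at most 1 count in any library. The two-sided exact permutation p for Gdf5 was 0.200.

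Bmp4, a ligand with activities close to those of Bmp2, was at 10.7, 3.66 and 3.84 normalized CPM in Control replicates 1, 2 and 3 and at 10.9, 15.5 and 15.1 in the AF-PTK@LEV@SPP1-labelled libraries. The groups nearly touched, since Control replicate 1 was 2.86 times as high as the mean of the near-identical pair and lay just under the lowest AF-PTK@LEV@SPP1-labelled library. Its log2 fold change was 0.93 with a standard error of 0.47 (edgeR adjusted p = 0.280). Gdf10, a close relative of Bmp3, showed the same split within Control, with 12.2, 4.24 and 4.64 in Control against 14.7, 12.2 and 9.79, and there the groups overlapped (log2 fold change 0.56, standard error 0.46, edgeR adjusted p = 0.482). Without Control replicate 1 the log2 fold changes of Bmp4 and Gdf10 were 1.86 and 1.44, neither of them called. Osteoblast or osteocyte markers were also high in Control replicate 1. The 8 markers summed to 4748, 1815 and 1808 normalized CPM in Control and to 2259.8, 3215 and 1869 in the AF-PTK@LEV@SPP1-labelled libraries, with Ibsp the most abundant, and 0 of 8 were called by edgeR (0 at an unadjusted p under 0.05 and 0 by DESeq2). Signs of their log2 fold changes turned with the fit, with 6 of 8 negative and a median of -0.30 over 5 distinct samples, 5 of 8 positive and a median of 0.06 with 6 libraries, and 4 of each sign in limma-voom. Ibsp weighed most in the sum, at 2812, 1501 and 1484 in Control against 1059.8, 1487 and 651. Bglap, at 624, 12.1 and 12.6 against 567, 872 and 757, was above the near-identical pair in every AF-PTK@LEV@SPP1-labelled library. So were Dmp1, Phex, Mepe, Ifitm5 and Sp7, while Ibsp and Alpl were not. These single markers were named after their values were seen. The part of these 8 markers in the levels of Bmp4 and Gdf10 was not tested.

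Bmp6, a ligand known for bone formation and for the control of iron through hepcidin, was at 17.9, 36.1 and 35.3 normalized CPM in Control and at 58.9, 26.8 and 51.8 in the AF-PTK@LEV@SPP1-labelled libraries. AF-PTK@LEV@SPP1 replicate 2 fell within the Control range, and the log2 fold change of 0.76 had a standard error of 0.45 (edgeR adjusted p = 0.342). Bmp7, a ligand that promotes matrix synthesis by cartilage and disc cells, was thinly counted, with 16 to 69 counts per library. It stood at 2.10, 1.03 and 2.32 normalized CPM in Control and at 4.05, 2.59 and 2.56 in the AF-PTK@LEV@SPP1-labelled libraries. The groups of Bmp7 did not overlap. The gap between Control replicate 3 and the lowest AF-PTK@LEV@SPP1-labelled library was smaller than that between Control replicates 2 and 3, counted as 1 sample. Over distinct samples, Control stood at 2.10 and 1.67. The log2 fold change of Bmp7 was 0.69 with a standard error of 0.34 (edgeR adjusted p = 0.275).

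Grem1, which encodes the antagonist gremlin that binds chiefly Bmp2, Bmp4 and Bmp7 (ENSRNOG00000026053, minus strand of chromosome 3, 100512313 to 100524082), was at 168, 398 and 397 normalized CPM in Control replicates 1, 2 and 3 and at 3024, 1135 and 3587 in AF-PTK@LEV@SPP1 replicates 1, 2 and 3. In counts these were 3272, 6193 and 6505 against 51474, 18839 and 63014. The groups lay far apart, and within them Control replicate 1 and AF-PTK@LEV@SPP1 replicate 2 were the low libraries. Means were 283 ± 162 (SD, n = 2) in Control and 2582 ± 1284 (SD, n = 3) in the AF-PTK@LEV@SPP1-labelled libraries. The log2 fold change was 3.18 with a standard error of 0.70, and the edgeR adjusted p was 0.0753. It was 0.0181 with 6 libraries, 3.23e-06 in DESeq2 and 0.0606 in limma-voom. Each single library left out kept the log2 fold change of Grem1 between 2.68 and 3.54, with edgeR adjusted p from 0.0751 to 0.202. Chad, a cartilage matrix gene, was the chondrocyte marker that was called, at 222, 465 and 466 in Control against 2872, 1797 and 3259.7 (log2 fold change 2.93, edgeR adjusted p = 0.0454). Its call was lost with the replicate number in the model and 6 libraries (log2 fold change 2.82, edgeR adjusted p = 0.0504). It was also lost without AF-PTK@LEV@SPP1 replicate 2 or 3, where edgeR called 0 genes in all. Low levels in Control replicate 1 and AF-PTK@LEV@SPP1 replicate 2 were also seen in the sum of the 8 chondrocyte markers, at 21137, 31644 and 31514 in Control and 40730.1, 28791 and 45815 in the AF-PTK@LEV@SPP1-labelled libraries. Col2a1 was the most abundant of them, and edgeR called 1 of 8 (3 at an unadjusted p under 0.05 and 2 by DESeq2). The list did not move as a whole, since 5 of 8 had positive and 3 negative log2 fold changes, with a median of 0.28. The negative ones, Matn3, Col9a1 and Hapln1, named after their values were seen, were at -1.24, -0.83 and -0.62, and Matn3 passed with 6 libraries and in DESeq2 (adjusted p = 0.0365 in edgeR and 0.0100 in DESeq2). Nucleus pulposus or notochord markers summed to 759, 326 and 319.8 in Control and to 4221, 1505 and 1786 in the AF-PTK@LEV@SPP1-labelled libraries, led by Cd24, with 0 of 6 called by edgeR (4 at an unadjusted p under 0.05 and 4 by DESeq2) and with Shh at or under 3 counts in every Control library. In the fit with 6 libraries, whose filter left Shh out, log2 fold changes were positive for 5 of 5 (median 2.56) and 2 were called. The sum of the 8 annulus or tendon markers was likewise lowest within Control in replicate 1, at 59065, 84872 and 85699.7. Within the AF-PTK@LEV@SPP1-labelled libraries it was lowest in replicate 2, at 118090.4, 84512 and 101849. The part of any of these cell types in the level of Grem1 was not tested.

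Nog encodes noggin, an antagonist made by the notochord and by cartilage. It was at 7.39, 3.79 and 5.25 normalized CPM in Control and at 2.88, 3.37 and 1.59 in the AF-PTK@LEV@SPP1-labelled libraries, from 28 to 144 counts per library. Every AF-PTK@LEV@SPP1-labelled library lay below every Control library, by a small margin between AF-PTK@LEV@SPP1 replicate 2 and Control replicate 2. The log2 fold change was -1.19 with a standard error of 0.41 (edgeR adjusted p = 0.157, and 0.0928 with 6 libraries). Without Control replicate 1, the highest library, it was -0.81 (edgeR adjusted p = 0.394). Chrd encodes chordin, an antagonist that is cut and inactivated by tolloid proteases such as Bmp1. Its levels were 10, 19.0 and 17.7 in Control and 38.6, 19.0 and 27.4 in the AF-PTK@LEV@SPP1-labelled libraries. AF-PTK@LEV@SPP1 replicate 2 equalled Control replicate 2 to this precision, and lay above the mean of the Control pair, 18.3, so that the groups touched. The log2 fold change of Chrd was 0.99 with a standard error of 0.40 (edgeR adjusted p = 0.205).

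Id1, whose product binds and blocks basic helix-loop-helix transcription factors, is the readout of the pathway among the 10 genes. It was at 64.1, 95.2 and 92.9 normalized CPM in Control and at 109.9, 67.4 and 153 in the AF-PTK@LEV@SPP1-labelled libraries. AF-PTK@LEV@SPP1 replicate 2 lay inside the Control range and the other 2 libraries above it, so the groups overlapped. Means were 79.1 ± 21.2 (SD, n = 2) and 110.2 ± 42.9 (SD, n = 3), and the log2 fold change of 0.47 had a standard error of 0.38 (edgeR adjusted p = 0.478). The difference did not exceed the spread between samples, and across single libraries left out the log2 fold change of Id1 ran from 0.16 to 0.73.

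Variation within Control bore on most of the 10 genes. Control replicate 1 was higher than replicates 2 and 3 for 3 of them, Bmp4, Gdf10 and Nog, with 2.86, 2.74 and 1.63 times the mean of the pair. It was lower than both for 6, and the pair stood at 2.40 times its level for Bmp2, 2.45 for Gdf5, 2.37 for Grem1, 2.00 for Bmp6, 1.83 for Chrd and 1.47 for Id1. For Bmp7 it lay between them. The genes with the largest difference between groups, Grem1, Gdf5 and Bmp2, were thus all lower in Control replicate 1 than in the pair, which placed Control replicate 1 nearer to the AF-PTK@LEV@SPP1-labelled libraries for Bmp2 and Gdf5 and farther from them for Grem1. As to position, 5 of the 10 genes (Bmp2, Bmp7, Gdf5, Grem1 and Id1) lie on chromosome 3, which holds 7.09% of the genes tested, and they did not share a direction.

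Beyond these 10, 68 other genes of the pathway were listed, of which 57 could be tested. edgeR called 3, Id4 and Tgfbr3 higher and Bmp5 lower, and with 6 libraries it called 13 of 55, 8 higher and 5 lower. DESeq2 called 12 of 57. Over all genes the shares called were 3.70%, 18.1% and 16.6% in these fits, so the counts for the pathway were near the background. The median log2 fold change of the 57 genes was 0.15, against 0.05 over all genes.

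Among the other ligands, 1 of 10 tested was called, and the median log2 fold change was -0.40. Bmp5, a ligand that shapes cartilage and the skeleton and the most abundant of this list in normalized CPM, was at 44.9, 51.3 and 49.7 in Control and at 17.4, 23 and 13.0 in the AF-PTK@LEV@SPP1-labelled libraries. The Control libraries were close together and all above the others, and Bmp5 fell by 1.43 on the log2 scale with a standard error of 0.25 (edgeR adjusted p = 0.0484). Mstn, which encodes myostatin, the ligand that restrains muscle growth, was called with 6 libraries and by DESeq2 but not by edgeR over 5 distinct samples. It stood at 0.564, 0.257 and 0.366 in Control and at 1.64, 7.83 and 2.50, and its high library, AF-PTK@LEV@SPP1 replicate 2, also had the most muscle transcripts. The 6 muscle markers summed to 847, 1118 and 1137 in Control and to 847, 8967 and 2279 in the AF-PTK@LEV@SPP1-labelled libraries, led by Acta1, with 0 of 6 called by edgeR (0 at an unadjusted p under 0.05 and 0 by DESeq2), and their part in the level of Mstn was not tested. Gdf2, Gdf7 and Gdf9 were at or under 3 counts in every library and were not detectable at this depth.

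Of the 13 receptors and co-receptors, 1 was called, with a median log2 fold change of 0.27. Tgfbr3, or betaglycan, a co-receptor that presents ligands of the TGF-beta family, stood at 53.8, 44.4 and 41.9 normalized CPM in Control and at 123, 119 and 94.3 in the AF-PTK@LEV@SPP1-labelled libraries. No library crossed between the groups, and Tgfbr3 rose by a log2 fold change of 1.20 with a standard error of 0.18 (edgeR adjusted p = 0.0391). Eng, or endoglin, an endothelial co-receptor and the most abundant of the list in Control, though not in the other group, where Tgfbr3 was above it, was at 104, 135 and 137 in Control and at 62.3, 56.9 and 77.4 (log2 fold change -0.88, edgeR adjusted p = 0.0736, and 0.0157 with 6 libraries). Its span ends within that of Fpgs on the other strand. The 7 endothelial markers measured summed to 533, 638 and 624 in Control and to 394, 459.6 and 459 in the AF-PTK@LEV@SPP1-labelled libraries, led by Pecam1, with 0 of 7 called by edgeR (4 at an unadjusted p under 0.05 and 3 by DESeq2), and their part in the level of Eng was not tested. Acvr1, a BMP type I receptor, Hjv, a co-receptor made by muscle and liver, and Bambi, a decoy receptor, were called with 6 libraries and by DESeq2, as was Eng, and had log2 fold changes over 5 distinct samples of -0.65, 2.67 and 0.77, not called. The value for Hjv was 1.67 without AF-PTK@LEV@SPP1 replicate 2. Hjv was at 7.13, 6.62 and 5.43 in Control and at 17.0, 84.8 and 24.8, again highest in AF-PTK@LEV@SPP1 replicate 2, the library with the most muscle transcripts.

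Of 15 other antagonists and modulators tested, edgeR called 0 (6 at an unadjusted p under 0.05, 3 with 6 libraries and 4 by DESeq2), and the median log2 fold change was 0.11. Nbl1, an antagonist of the same family as gremlin, was at 271, 501 and 513 normalized CPM in Control and at 208, 152 and 200.1 in the AF-PTK@LEV@SPP1-labelled libraries, and Twsg1, a partner of chordin, at 129, 149.5 and 151 against 225, 179 and 228. Both were called with 6 libraries and by DESeq2 but not by edgeR over 5 distinct samples, and neither had overlapping groups. Sostdc1, which encodes a further antagonist, had 1, 2 and 0 counts in Control and 10, 31 and 50 in the AF-PTK@LEV@SPP1-labelled libraries. Sostdc1, like Mstn above, passed the filter on low counts only through the group where it is high, so the tests of both, and their places among the genes called with 6 libraries and by DESeq2, are weak support for a difference. Sost, which encodes the osteocyte protein sclerostin, was singled out after its values were seen, at 29.7, 1.86 and 1.34 in Control and 58.8, 70.2 and 41.7 in the AF-PTK@LEV@SPP1-labelled libraries. Control replicate 1 was far above the pair. The log2 fold change of Sost with all libraries was 1.87 in edgeR (adjusted p = 0.341) and 1.84 in DESeq2 (adjusted p = 0.353). It was 3.40 in limma-voom (adjusted p = 0.135). With 6 libraries and the replicate number in the edgeR model it was 3.66 (adjusted p = 0.146). Without Control replicate 1 it was 5.13, but that fit holds 1 Control sample and takes its spread from the other group. Fstl1, the most abundant gene of the list, was at 880.4, 1004 and 999 in Control and at 937, 508 and 752, with overlapping groups, and its span holds that of Lrrc58 on the same strand.

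Of the 8 Smads and Smad ubiquitin ligases, edgeR called 0 (2 at an unadjusted p under 0.05, 2 with 6 libraries and 0 by DESeq2), and the median log2 fold change was 0.01. Smad4, the partner of all receptor-activated Smads and the most abundant of the list, was at 99.1, 108 and 109 normalized CPM in Control and at 116, 105 and 112. These groups overlapped and lay within a narrow range. Smad1 and Smad9, which carry the BMP signal, were called by edgeR with 6 libraries, in no other alternative, and had opposite signs, with log2 fold changes of -0.37 and 0.70 over 5 distinct samples.

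Of 11 other response genes tested, 1 was called, and the median log2 fold change was 0.31. Id4, a relative of Id1, was at 40.8, 39.4 and 34.2 normalized CPM in Control and at 252, 156 and 246 in the AF-PTK@LEV@SPP1-labelled libraries. Every AF-PTK@LEV@SPP1-labelled library was above every Control library by a wide margin, and Id4 rose by a log2 fold change of 2.48 with a standard error of 0.27 (edgeR adjusted p = 0.0230). The other Id genes were not called. Id2, the most abundant gene of the list, was at 123, 188 and 185 in Control and at 218, 134 and 311, and Id3, named after its values were seen as the remaining Id gene, at 132, 149.7 and 158 against 112, 106 and 139. Id2 thus had the order of libraries seen for Id1, and Id3 had a negative log2 fold change of -0.27. The calls of Id4, Tgfbr3 and Bmp5 were each lost without Control replicate 1 or any 1 AF-PTK@LEV@SPP1-labelled library, with edgeR adjusted p up to 0.136, 0.136 and 0.150, while the log2 fold changes kept to 2.33 to 2.68, 1.10 to 1.36 and -1.65 to -1.25.

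**Figure D2:**
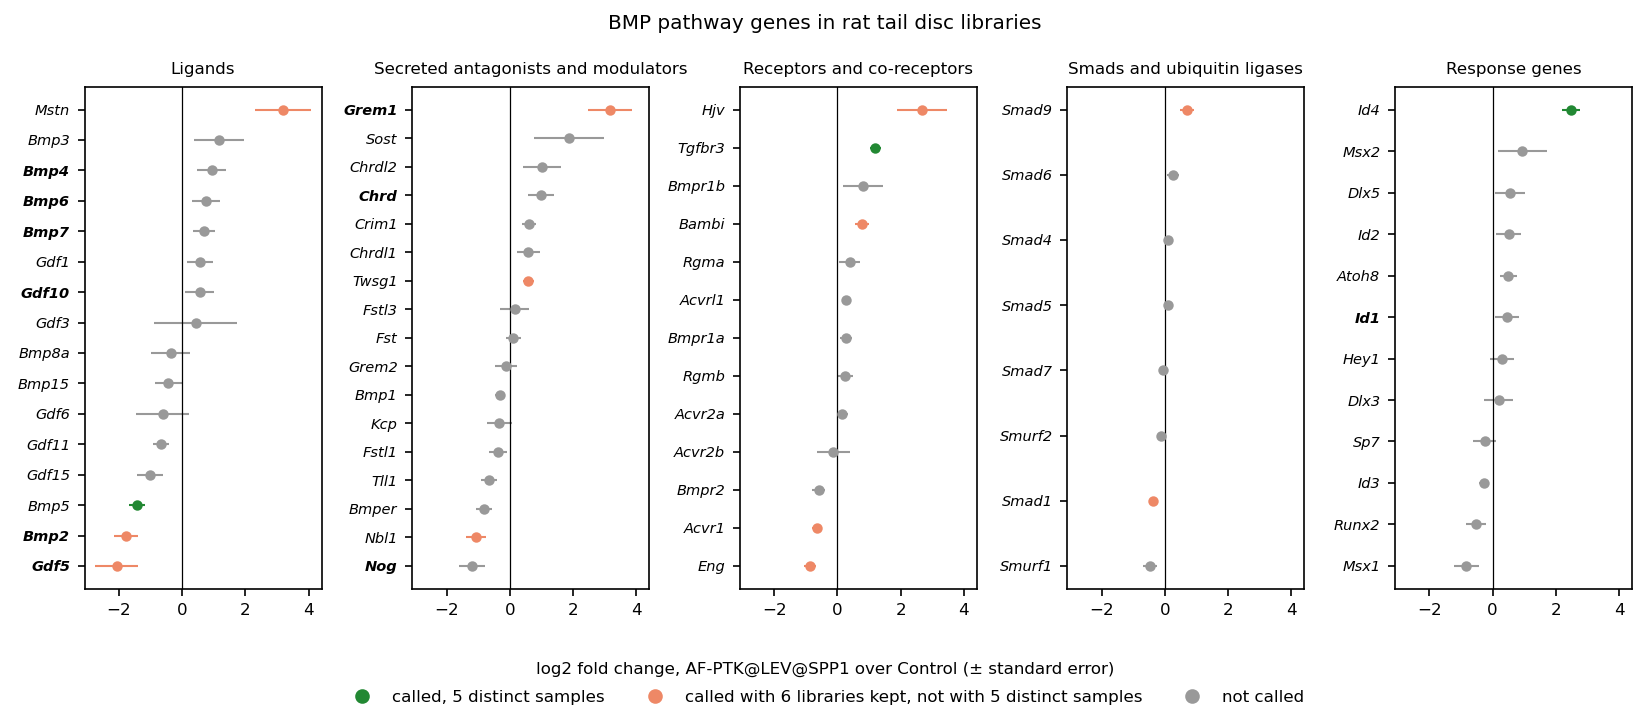
Fitted log2 fold changes of the tested pathway genes, AF-PTK@LEV@SPP1 over Control, with bars for the standard error, grouped by role and with the 10 genes in bold. Green marks the 3 genes called over 5 distinct samples, Bmp5, Tgfbr3 and Id4, orange those that edgeR called with 6 libraries but not with 5 distinct samples, and grey the rest; Sostdc1 is not drawn because its Control libraries were all at or under 3 counts.

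Marker lists of other cells that disc tissue can carry also differed between libraries. Neutrophil markers summed to 1109.6, 179 and 168 normalized CPM in Control and to 281, 2672 and 3694 in the AF-PTK@LEV@SPP1-labelled libraries, led by S100a9, with Ltf at or under 3 counts in every library. Erythroid markers summed to 2391, 3186 and 3275 and to 2505, 20564 and 14094, led by Hba-a1. Adipocyte markers summed to 531, 104 and 108 and to 1138, 1852 and 853, led by Fabp4. edgeR called 0 of 7, 0 of 7 and 0 of 8 of these (0, 1 and 5 at an unadjusted p under 0.05, and 0, 3 and 5 by DESeq2). Those called by DESeq2 include the erythroid gene Klf1, with 41, 8 and 10 counts in Control, and the adipocyte gene Lep, with 17, 3 and 3. Both passed the filter on low counts only through the group where they are high, so their tests are weak support for a difference. limma-voom called 0 genes of each marker and pathway list in which edgeR called 0. Neutrophil and erythroid sums set AF-PTK@LEV@SPP1 replicates 2 and 3 apart from replicate 1, and Control replicate 1 was the highest Control library for neutrophil and adipocyte markers. The part of these cells in the levels of the 10 genes was not tested.

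Genes whose levels ran most like those of Bmp2 and Id1 were taken from 10057 genes by the Pearson correlation of log2 CPM over the 5 distinct samples, which also share the split into groups, so the values are a description. For Bmp2, the gene with the smallest p of the 10, these were Man2a1, Zfand5 and Klf10, with r of 0.999, 0.999 and 0.998. Man2a1 was at 113, 159 and 161 normalized CPM in Control and at 83.1, 91.9 and 92.3 in the AF-PTK@LEV@SPP1-labelled libraries, a smaller difference in the same direction. For Id1 they were Id2, Tpst1 and Ucma, with r of 0.999, 0.993 and 0.991. Ucma, a cartilage gene, was at 99.8, 147 and 146 in Control and at 187, 116 and 283, and like Id1 it was low in Control replicate 1 and in AF-PTK@LEV@SPP1 replicate 2.

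Promoter windows of 250 bases before the annotated start were matched by symbol for 7 of the 10 genes (Bmp4, Bmp6, Gdf10, Grem1, Nog, Chrd and Id1) in RefSeq sequences of the rat build GRCr8. Both strands were searched for 4 motifs, the TATA box TATAAA, a decamer bound by NF-κB, and the palindromes GGCGCC and GTCTAGAC, which Smads can bind and which do not overlap each other here. In these windows GGCGCC occurred once each in Grem1, Chrd, Nog and Gdf10, its first base 91, 203, 51 and 53 bases before the start, and not in the windows of Bmp4, Bmp6 and Id1. Of all 33469 windows of this length, 8.69% held GGCGCC, but of the 2753 with at least 70% G and C it was 41.4%. The windows of Grem1, Chrd, Nog and Gdf10 had 72.0%, 78.4%, 74.0% and 76.0% G and C, where the median of all windows was 51.2%. TATAAA occurred once, 59 bases before the start of Id1, and in 12.9% of all windows, while GTCTAGAC, found in 0.173% of all windows, was in none of the 7, nor was the NF-κB decamer, found in 0.0956% of all windows. A match describes the letters of the window and not a bound site. The windows of the 3 antagonists are shown because all of them held GGCGCC although the fitted log2 fold changes were positive for Grem1 and Chrd and negative for Nog, with 0 of 3 called by edgeR over 5 distinct samples, and that of Id1 as the target gene without it. They run 5′ to 3′ along the gene, Grem1 from chr3:120978320-120978569 on the minus strand, Chrd from chr11:93685101-93685350 on the minus strand, Nog from chr10:74627502-74627751 on the minus strand and Id1 from chr3:161671314-161671563 on the plus strand, with GGCGCC in capitals.
Grem1: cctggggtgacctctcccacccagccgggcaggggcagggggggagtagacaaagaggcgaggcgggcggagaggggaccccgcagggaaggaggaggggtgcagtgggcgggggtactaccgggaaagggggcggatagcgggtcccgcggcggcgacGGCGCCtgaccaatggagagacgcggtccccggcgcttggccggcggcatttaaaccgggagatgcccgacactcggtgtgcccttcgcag
Chrd: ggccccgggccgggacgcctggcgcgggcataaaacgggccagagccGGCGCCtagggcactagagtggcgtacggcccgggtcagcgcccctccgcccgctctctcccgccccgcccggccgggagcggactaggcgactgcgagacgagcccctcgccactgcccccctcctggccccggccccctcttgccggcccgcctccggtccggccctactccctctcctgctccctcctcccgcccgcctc
Nog: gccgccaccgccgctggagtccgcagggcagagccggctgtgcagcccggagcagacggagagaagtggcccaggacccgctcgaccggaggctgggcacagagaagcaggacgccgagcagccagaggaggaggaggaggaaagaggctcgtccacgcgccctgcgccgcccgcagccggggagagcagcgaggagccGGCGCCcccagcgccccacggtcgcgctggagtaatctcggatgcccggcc
Id1: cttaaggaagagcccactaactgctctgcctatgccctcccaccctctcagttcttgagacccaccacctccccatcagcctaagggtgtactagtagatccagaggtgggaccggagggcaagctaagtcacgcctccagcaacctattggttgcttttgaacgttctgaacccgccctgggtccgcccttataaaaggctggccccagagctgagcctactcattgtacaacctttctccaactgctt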

How the data were processed

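The authors deposited raw counts of reads per rat Ensembl gene in 6 libraries, without normalization. The submitters' processing notes name FastQC, Trimmomatic, HISAT2, featureCounts and DESeq2 without versions and the mouse build mm10, whereas the gene identifiers are those of rat; the rat build of the table's coordinates and the strand setting of the counting are not given in the sources used here. Columns headed IVD were taken as Control by their number and the study's description. Counts were analysed with edgeR 4.0.16 in R 4.3.3 (TMM normalization, filterByExpr with a minimum count of 10, quasi-likelihood test), with Control replicates 2 and 3 summed. The means and SD given are of normalized CPM. Differences of mean log2 CPM and exact permutation tests used log2 CPM with a prior count of 2. The fits were tested on simulated counts. Alternatives were 6 libraries, DESeq2 1.42.0, limma-voom 3.58.1, other size factors and filters, a fold threshold, the replicate number in the model and each library left out. The 10 genes, the 5 lists of other pathway genes and the 10 lists of cell markers were chosen with earlier results of these data known. Named were all 10 genes, pathway genes called in either edgeR fit, the most abundant gene of each list, called markers, and the 3 genes most correlated with Bmp2 and with Id1, besides those said to be named after their values were seen; the same for the member with the highest CPM per kilobase was not done, since no transcript lengths were used. A total of 6 marker symbols were not found under a single name. The labels name separate biological replicates, but p-values measure only the spread between these samples.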

Additional observations from a re-analysis of the deposited data

How the results depend on the processing

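No member changed sign in any alternative. Of 309 results under the alternatives, for the 10 members and the 13 other pathway genes that edgeR called in either fit, 271 kept their direction and, except for 10 differences of mean log2 CPM that had no test, their side of the threshold, 12 lost and 26 gained a call, and 0 reversed. Some of the gained calls follow from that choice of genes. The count of members called, 0 over 5 distinct samples, was 3 with 6 libraries kept, 3 in DESeq2, and 0 to 1 with single libraries left out (1, Bmp2, without Control replicate 1). Other pathway genes called, 3 over 5 distinct samples, numbered 13 with 6 libraries, 12 in DESeq2 and 0 to 3 with single libraries left out. All genes called, 575, numbered 2727 with 6 libraries, 2572 in DESeq2 and 0 to 566 with single libraries left out, with 280 without Control replicate 1, 113 without AF-PTK@LEV@SPP1 replicate 1 and 0 without replicate 2 or 3 of that group (edgeR; 3109 and 2699 genes had an unadjusted p under 0.05 there). Keeping 6 libraries counts a near-identical library as a further sample; why DESeq2 called more was not tested.

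With the replicate block and 6 libraries, 1 member was called (Bmp2, log2 fold change -1.84, edgeR adjusted p = 0.0460), with 3 other pathway genes, 4 of 5 notochord markers (of 6, 5 passed the filter) and 741 genes in all. After the group means were taken out, same-numbered libraries had correlations of -0.326, -0.282 and -0.0756, and libraries of other numbers a mean of 0.103. Because Control replicates 2 and 3 are nearly the same library, these values cannot decide whether replicate numbers paired the samples. Counting error weighs on Bmp7, at 16 to 69 counts per library, on Nog, at 28 to 144, and on Gdf5, with as few as 22.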

Other observations

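Ratios of counts within a library do not depend on its depth or normalization, and 45 ratios between the 10 genes were computed after the values had been seen, with no test. For each count of Gdf5 there were 18.8, 17.8 and 18.5 counts of Grem1 in Control replicates 1, 2 and 3 and 817, 856 and 594 in AF-PTK@LEV@SPP1 replicates 1, 2 and 3. This was the largest of the 45 gaps between the groups. Grem1 over Bmp2 came next, at 10.7, 10.3 and 10.8 in Control and 439.9, 136 and 420.1 in the AF-PTK@LEV@SPP1-labelled libraries. Control replicate 1 had less than the near-identical pair of each of these 3 genes, yet almost the same ratios, so the antagonist and both ligands differed between Control samples by nearly the same factor and between the groups in opposite directions. Because replicates 2 and 3 are nearly the same library, the narrow Control range rests on 2 distinct samples.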
